A study of Rattus norvegicus with 16 samples.

Results

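The genes described here carry glucose into brain cells and break it down to lactate. They are 10 in number: the glucose transporters Slc2a1 and Slc2a3, the hexokinases Hk1 and Hk2, the phosphofructokinase Pfkp, the aldolase Aldoa, the phosphoglycerate kinase Pgk1, the enolase Eno2, and the lactate dehydrogenase subunits Ldha and Ldhb. They were chosen by gene symbol, as every probe set that the array's annotation gives to 1 of these symbols. The choice gave 16 probe sets of the 15923 on the array, 13 of them tested and 3 of them manufacturer controls for hexokinase that were not tested, and 10 of the 10411 genes the array names. Where a gene had more than 1 tested probe set, which was so for Slc2a3 and Pgk1, the one with the highest mean stands for the gene and the others are given beside it.

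The series followed oxidative stress over time in 2 hippocampal fields of the rat, CA1 and CA3. Total RNA came from organotypic hippocampal slice cultures of Rattus norvegicus, pieces of brain tissue kept alive in a dish with their neurons and glia. The 16 arrays form 8 groups of 2: CA1 and CA3, each at the time called T0 and at 3 later times, 30 min, 3 h and 12 h. The agent that gave the stress, its dose, the rat strain, the age of the tissue and whether T0 tissue was exposed were given by none of the sources used here. All groups share the culture and 2 cycles of labelling, in which RNA is amplified before hybridization. The replicates are labelled biological, and the labels name no animals, so p-values measure the spread between these arrays. In slices, which hold many cell types, fewer cells of a type and less RNA per cell cannot be told apart.

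Glycolysis splits glucose into pyruvate in a chain of enzymes and yields ATP without oxygen. Neurons take up glucose mainly through Slc2a3 (GLUT3), while glia and the vessel wall use Slc2a1 (GLUT1). Hexokinase traps glucose inside the cell, phosphofructokinase commits it to the chain, and lactate dehydrogenase interconverts pyruvate and lactate, Ldha subunits favouring lactate and Ldhb subunits pyruvate. Several of these genes are known targets of the hypoxia-inducible factor HIF, which binds the cores ACGTG and GCGTG.

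The sequences just before the starts of 4 of these genes are shown, the genes being picked for their expression values. Slc2a1 was the gene that passed the test, and Eno2 had one of the largest differences at 12 h. Ldha and Ldhb differed from T0 in opposite directions. Whether the sequences bear on these differences was not tested. Each run gives the 250 bases before the RefSeq start, 5′ to 3′ on the gene's strand, from RefSeq's rat assembly GRCr8. Capitals mark ACGTG or GCGTG on either strand (read as CACGT and CACGC on the other strand).
Slc2a1 (chr5:138002272-138002521, plus strand): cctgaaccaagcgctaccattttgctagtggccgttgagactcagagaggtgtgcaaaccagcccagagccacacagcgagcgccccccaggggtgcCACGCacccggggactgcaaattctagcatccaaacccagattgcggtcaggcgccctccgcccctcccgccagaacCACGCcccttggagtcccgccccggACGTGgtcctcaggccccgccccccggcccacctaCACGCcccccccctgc
Eno2 (chr4:159267221-159267470, minus strand): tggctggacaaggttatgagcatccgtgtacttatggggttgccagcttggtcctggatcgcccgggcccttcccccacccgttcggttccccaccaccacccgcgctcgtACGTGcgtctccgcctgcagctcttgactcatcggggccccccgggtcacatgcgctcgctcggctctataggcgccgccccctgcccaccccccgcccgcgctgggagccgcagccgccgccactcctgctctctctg
Ldha (chr1:106507842-106508091, plus strand): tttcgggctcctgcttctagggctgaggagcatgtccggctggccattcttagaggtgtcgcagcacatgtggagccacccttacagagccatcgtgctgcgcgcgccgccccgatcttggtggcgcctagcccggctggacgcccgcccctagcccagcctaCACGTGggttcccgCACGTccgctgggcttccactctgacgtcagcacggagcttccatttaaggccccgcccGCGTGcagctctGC
Ldhb (chr4:177177409-177177658, minus strand): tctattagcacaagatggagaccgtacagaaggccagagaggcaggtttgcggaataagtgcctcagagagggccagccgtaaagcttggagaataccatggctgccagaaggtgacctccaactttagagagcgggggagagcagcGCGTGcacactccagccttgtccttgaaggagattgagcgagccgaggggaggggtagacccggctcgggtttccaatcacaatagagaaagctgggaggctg

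The Slc2a1 stretch held 4 cores, at positions -153, -76, -51 and -16 counted from the start, the one at -51 being ACGTG and the others GCGTG on the opposite strand. The Ldha stretch held ACGTG at -87, -86 and -73, the first 2 of them overlapping as the 2 strands of 1 CACGTG, and GCGTG at -14 and -2. The core at -2 runs on past the start, so only its first letters stand in capitals. Eno2 held 1 core, an ACGTG at -139, and Ldhb 1, a GCGTG at -103. Over windows of 300 bases, from 250 before to 50 after a start, 41.6% of all 33469 rat promoters held at least 1 of the 2 cores. RefSeq listed 11 such windows for 8 of the genes, and 7 of the 11 held a core. ACGTG was in 19.3% of all windows and 5 of the 11, and GCGTG in 29.7% and 4 of the 11. CACGTG was in 6.42% of all windows and in that of Ldha among the genes described here. The Sp1-type GC box GGGCGG was in 33.1% and 7 of the 11. These are letter matches and say nothing of binding. Slc2a3 and Pgk1 have no entry in the promoter table.

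All values are log2 expression values as deposited, so a difference of 1 is a doubling, and a probe set's level can be set against its own level on other arrays but not against that of another probe set. Differences were tested with limma across 15866 probe sets, with Benjamini-Hochberg adjustment within each comparison and an adjusted p of 0.05 as the threshold. Errors after ± are limma's moderated standard errors unless called SD. The later times were each compared with the same 4 T0 arrays, so their differences from T0 share those values.

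At 12 h against T0, averaged over both fields, 1 of the 10 genes passed the test, Slc2a1, and it rose. Over all probe sets 2.07% passed in this comparison. The 10 genes had a median difference of 0.78, with 7 higher and 3 lower, against a median of -0.03 over all probe sets. For 6 of them (Slc2a1, Slc2a3, Hk1, Pfkp, Eno2 and Ldhb) the 4 arrays at 12 h all lay above the 4 at T0. Such a gap between times, in either direction, was seen for 15.6% of all probe sets. The 10 genes were chosen with earlier results of these data known. Their median and counts beside those of all probe sets are therefore no test of the set. An unadjusted p under 0.05 was found for 6 of the 10 genes and 18.2% of all probe sets. With the CA1 and CA3 arrays of a time and number as pairs, 0 of the 10 and 0 of all probe sets passed at 12 h. In that fit 4 of the 10 and 10.5% of all probe sets had an unadjusted p under 0.05. At 30 min none of the 10 passed by limma (0.107% of all probe sets did), with 2 at an unadjusted p under 0.05 (7.46% of all). At 3 h none passed either (0.183% of all), again with 2 at an unadjusted p under 0.05 (9.09% of all). The 4 arrays did not overlap those of T0 for 2 of the genes at 30 min (5.55% of all probe sets) and for 1 at 3 h (6.69%). A test of any difference between the 4 times passed for 0 of the 10 and 0.403% of all probe sets. In it 4 of the 10 and 14.2% of all probe sets had an unadjusted p under 0.05. The smallest adjusted p of the 10 was 0.187, that of Slc2a1 (limma). With the CA1 and CA3 arrays of a time and number as pairs, 1 of the 10 and 6.02% of all had an unadjusted p under 0.05.

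**Figure D1:**
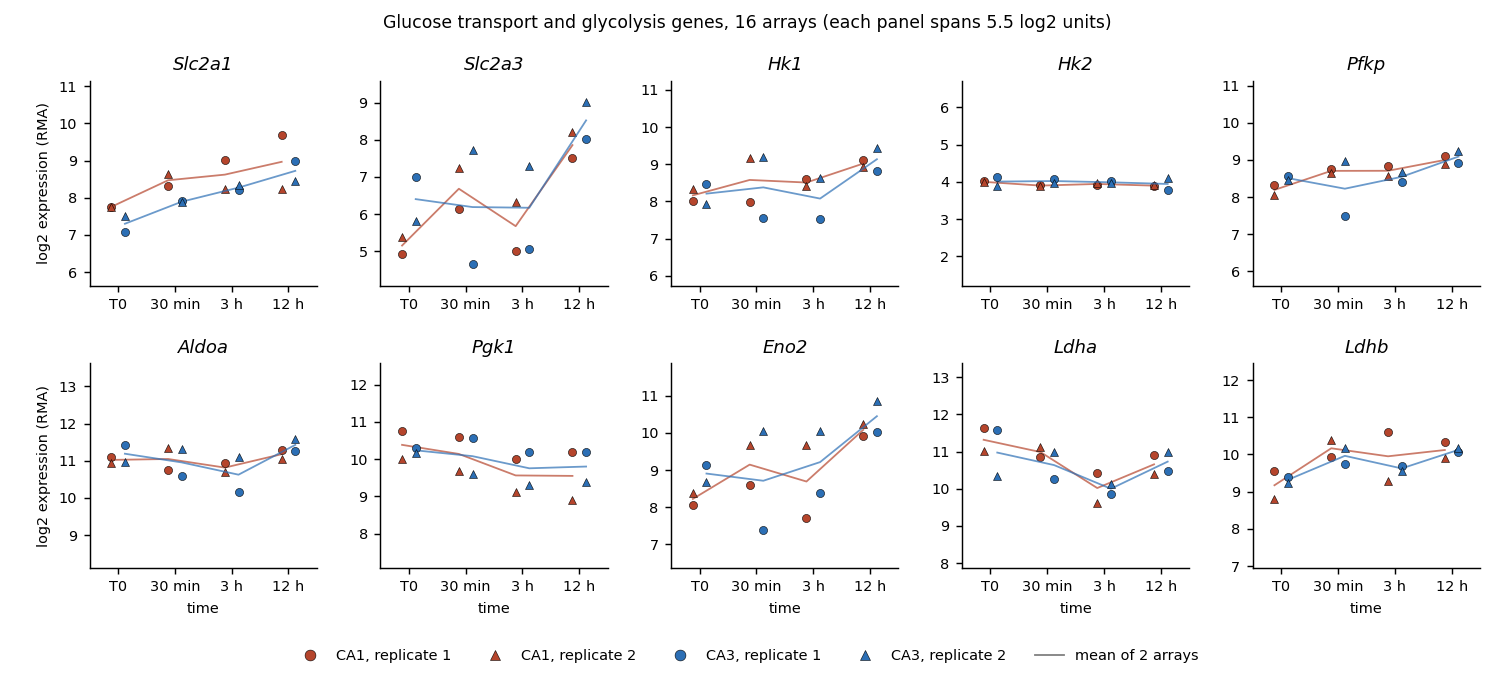
Log2 expression (vertical axis) of the 10 genes at T0, 30 min, 3 h and 12 h in CA1 (red) and CA3 (blue); circles are replicate 1, triangles replicate 2, lines join the means of 2 arrays, and every panel spans the same range of log2 units. Slc2a1, Slc2a3, Hk1, Pfkp, Eno2 and Ldhb have all 4 of their 12 h points above all 4 of their T0 points, while the points of Hk2 lie between 3.79 and 4.12 throughout.

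Slc2a1 (on chromosome 5 from 138002522 to 138030742 in GRCr8), the transporter of glia and the vessel wall, read 7.75 and 7.76 in CA1 and 7.09 and 7.51 in CA3 at T0. At 30 min it read 8.31 and 8.63 in CA1 and 7.90 and 7.89 in CA3. At 3 h it read 9.02 and 8.23 in CA1 and 8.20 and 8.35 in CA3. All arrays of both times were above all arrays of T0. At 12 h the values were 9.69 and 8.25 in CA1 and 9.002 and 8.446 in CA3, again above every T0 array, with the 2 CA1 arrays far apart. The mean over both fields was 7.53 ± 0.32 (SD, n = 4) at T0 and 8.18 ± 0.36 at 30 min. It was 8.45 ± 0.39 at 3 h and 8.85 ± 0.65 at 12 h. The later times overlapped with each other, and none of them overlapped with T0.

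The difference from T0 was 0.65 ± 0.29 at 30 min (limma, adjusted p = 0.666) and 0.92 ± 0.29 at 3 h (adjusted p = 0.353). At 12 h Slc2a1 had risen by 1.32 ± 0.29, or 2.49-fold (limma, adjusted p = 0.0497). The rise was of like size in both fields, 1.21 ± 0.42 in CA1 and 1.42 ± 0.42 in CA3, but with 2 arrays against 2 neither passed alone (adjusted p = 0.292 and 0.435). The adjusted p lies at the threshold. With each CA1 and CA3 array of the same time and number treated as a pair, the difference was unchanged in size and the adjusted p was 0.321. With the spike signal described further on as a covariate the difference was 1.39 and the adjusted p 0.343. The call held in 8 of 26 other settings, with a difference between 0.96 and 1.82 in all 26. Leaving out 1 array ended it for 13 of the 16 arrays and kept it for the other 3 (both CA1 arrays of 3 h and CA1 12 h replicate 2). The largest adjusted p was 0.156, without CA1 T0 replicate 2, and the smallest difference 0.96, without CA1 12 h replicate 1.

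Slc2a3, the main transporter of neurons, had the largest difference of the 10 at 12 h and the widest spread before it. At T0 it read 4.92 and 5.39 in CA1 and 6.99 and 5.82 in CA3. At 30 min it read 6.13 and 7.24 in CA1 and 4.65 and 7.73 in CA3, and at 3 h 5.02 and 6.33 in CA1 and 5.05 and 7.29 in CA3. Replicate 2 was the higher array in both fields at both of these times, and the arrays overlapped with T0. At 12 h the values were 7.52 and 8.20 in CA1 and 8.03 and 9.01 in CA3, all above T0. The difference from T0 was 0.66 ± 0.70 at 30 min, 0.14 ± 0.70 at 3 h and 2.41 ± 0.70 at 12 h, or 5.31-fold, which did not pass (limma, adjusted p = 0.106). It was 2.70 in CA1 and 2.12 in CA3, and the test of the one against the other did not pass (0.58 ± 1.41, limma, adjusted p = 1.0). The other Slc2a3 probe set stayed low, with all arrays between 3.69 and 4.69 and a difference of 0.06 ± 0.17 at 12 h, so the pattern of Slc2a3 rests on 1 of 2 probe sets.

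Hk1, the hexokinase of neurons and most other brain cells, read 8.01 and 8.32 in CA1 and 8.48 and 7.94 in CA3 at T0. At 12 h it read 9.12 and 8.92 in CA1 and 8.83 and 9.45 in CA3, above every T0 array. The difference was 0.89 ± 0.39 (limma, adjusted p = 0.261), after 0.29 ± 0.39 at 30 min and 0.11 ± 0.39 at 3 h. The arrays at those times ran from 7.53 to 9.20 and lay on both sides of T0. The 3 control probe sets for hexokinase on the array were low and flat, with means of 4.17, 4.95 and 3.40. Hk2, the isoform of muscle and of cells that respond to growth signals, ran from 3.79 to 4.12 over all 16 arrays, and its mean is above that of only 11.8% of the tested probe sets. At 12 h its difference was -0.08 ± 0.11 (adjusted p = 0.807). At such a signal a change in Hk2 may not be detectable.

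Pfkp encodes the platelet-type phosphofructokinase, which is also made in brain. At T0 it read 8.33 and 8.06 in CA1 and 8.56 and 8.46 in CA3. At 12 h it read 9.10 and 8.90 in CA1 and 8.93 and 9.25 in CA3, all higher than at T0. The difference was 0.69 ± 0.26 (limma, adjusted p = 0.192), and at 30 min and 3 h it was 0.11 ± 0.26 and 0.28 ± 0.26. One array stood apart, CA3 at 30 min replicate 1 with 7.49, which was also the lowest array for Slc2a3 and Eno2. Without it, as without the other CA3 array of that time, the adjusted p of Pfkp at 12 h was 0.0312 at the same difference.

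Aldoa, which splits fructose bisphosphate, varied little for its signal, from 10.16 to 11.58. Its T0 arrays ran from 10.93 to 11.41 and its 12 h arrays from 11.06 to 11.58, a difference of 0.20 ± 0.25 (limma, adjusted p = 0.799). Pgk1, which makes the first ATP of the chain, had a lower mean at 12 h than at T0. It read 10.76 and 10.01 in CA1 and 10.31 and 10.16 in CA3 at T0, and 10.21 and 8.89 in CA1 and 10.21 and 9.40 in CA3 at 12 h. Replicate 2 was the lower array in all 8 groups, and the times overlapped. The difference was -0.64 ± 0.40 at 12 h (adjusted p = 0.465) and -0.65 ± 0.40 at 3 h (adjusted p = 0.649). At 12 h it was 0.11 with the spike covariate, and leaving out 1 array moved it between -0.96, without CA1 12 h replicate 1, and -0.31, without replicate 2 of that group. A second Pgk1 probe set was lower by 3 h as well (-0.86 ± 0.23, limma, adjusted p = 0.248) but not to that degree at 12 h (-0.20 ± 0.23), and the third, with a mean of 3.27, was flat.

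Eno2, the enolase of neurons, shared the course of Slc2a3. At T0 it read 8.07 and 8.38 in CA1 and 9.13 and 8.68 in CA3. At 30 min it read 8.61 and 9.69 in CA1 and 7.38 and 10.05 in CA3, and at 3 h 7.70 and 9.68 in CA1 and 8.38 and 10.05 in CA3. At both times replicate 2 was high and replicate 1 low in both fields. At 12 h both replicates were high, at 9.93 and 10.24 in CA1 and 10.04 and 10.86 in CA3, and none overlapped with T0. The difference was 0.36 ± 0.62 at 30 min, 0.39 ± 0.62 at 3 h and 1.70 ± 0.62 at 12 h, or 3.25-fold (limma, adjusted p = 0.181).

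**Figure D2:**
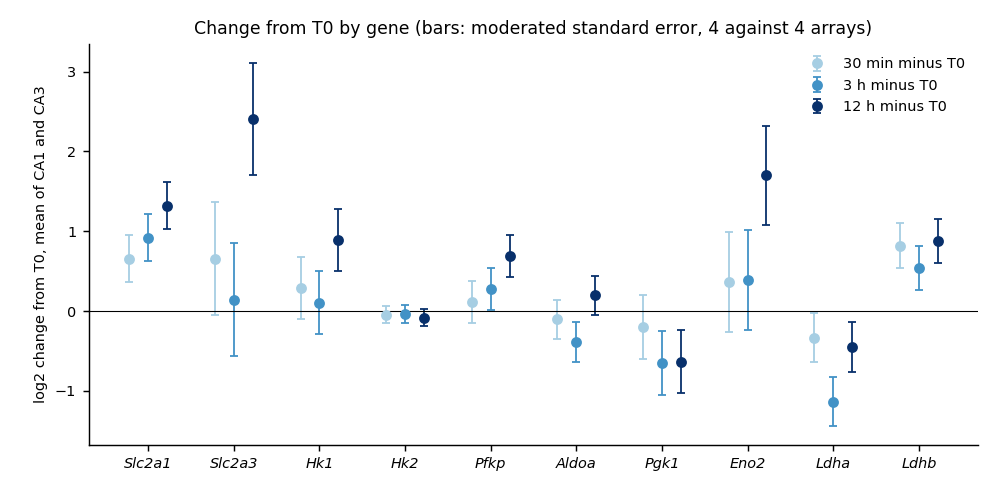
Log2 difference from T0, averaged over CA1 and CA3 (vertical axis), for each of the 10 genes at 30 min (light), 3 h (middle) and 12 h (dark); bars are moderated standard errors from limma, 4 arrays against 4. Slc2a1 lies above 0 at all 3 times (0.65, 0.92 and 1.32), Slc2a3 and Eno2 are far above 0 only at 12 h (2.41 and 1.70), and Ldha is lowest at 3 h (-1.14).

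The subunits of lactate dehydrogenase differed from T0 in opposite directions, though neither passed the test. Ldha read 11.62 and 11.01 in CA1 and 11.59 and 10.36 in CA3 at T0, and 10.85 and 11.12 in CA1 and 10.27 and 11.00 in CA3 at 30 min. It was lowest at 3 h, at 10.42 and 9.62 in CA1 and 9.87 and 10.14 in CA3, and read 10.91 and 10.40 in CA1 and 10.47 and 10.99 in CA3 at 12 h. CA3 T0 replicate 2 was the low array of its time and alone made T0 overlap with 3 h. The difference from T0 was -0.33 ± 0.31 at 30 min, -1.14 ± 0.31 at 3 h (limma, adjusted p = 0.267) and -0.45 ± 0.31 at 12 h (adjusted p = 0.521). The 12 h value moved between -0.76, without CA3 T0 replicate 2, and -0.14, without CA3 T0 replicate 1.

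Ldhb read 9.55 and 8.80 in CA1 and 9.40 and 9.24 in CA3 at T0, the lowest of the 4 times. At 30 min it read 9.94 and 10.39 in CA1 and 9.74 and 10.18 in CA3, all above T0. At 3 h it read 10.60 and 9.30 in CA1 and 9.69 and 9.56 in CA3, and at 12 h 10.34 and 9.90 in CA1 and 10.07 and 10.18 in CA3. Only CA1 replicate 2 at 3 h came down into the range of T0. The difference was 0.82 ± 0.28 at 30 min (limma, adjusted p = 0.455), 0.54 ± 0.28 at 3 h and 0.88 ± 0.28 at 12 h (adjusted p = 0.128).

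Because an array's own offset cancels within it, Ldha minus Ldhb was also taken array by array. Its zero has no meaning, since the 2 probe sets differ in brightness, and it was looked at after the values of both genes were seen, so it was not tested. It stood at 1.90 ± 0.53 (SD, n = 4) at T0, with 2.08 and 2.21 in CA1 and 2.19 and 1.12 in CA3. It was 0.75 ± 0.16 at 30 min (0.53 to 0.91), 0.22 ± 0.32 at 3 h (-0.19 to 0.57) and 0.57 ± 0.18 at 12 h (0.40 to 0.81). All 12 later arrays lay below all 4 T0 arrays, the nearest T0 array being CA3 replicate 2 (1.12, against 0.91 for the highest later array). How many other pairs of probe sets have such a gap was not counted. Over the 16 arrays the 2 genes were nearly unrelated (Pearson r = 0.09).

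**Figure D3:**
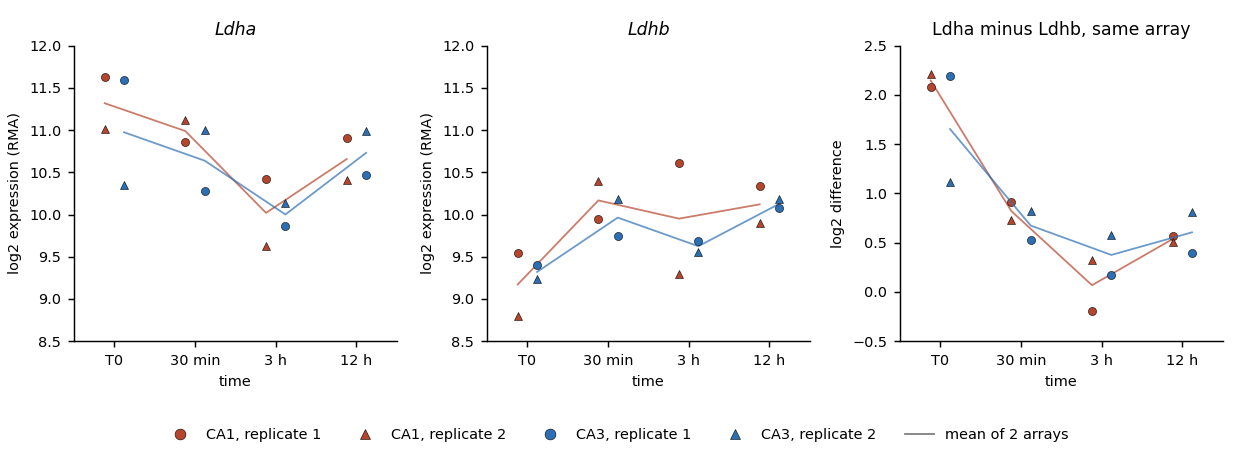
Log2 expression of Ldha and of Ldhb and their difference on the same array (vertical axes) at T0, 30 min, 3 h and 12 h; circles and triangles are replicates 1 and 2, red CA1 and blue CA3, and lines join the means of 2 arrays. Every later array has a smaller difference than every T0 array (1.12 to 2.21 at T0, at most 0.91 later). The pair was looked at after the values of both genes were seen and was not tested.

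Between the fields, no gene of the 10 passed the test. With CA1 minus CA3 averaged over the 4 times, limma called 0 of 10, with 0 at an unadjusted p under 0.05, and 0.0% of all probe sets (3.21% at an unadjusted p under 0.05). With the CA1 and CA3 arrays of a time and number as pairs it again called 0 of the 10, and 0.208% of all probe sets. An unadjusted p under 0.05 was found for 1 of the 10 and for 10.6% of all probe sets in that fit. That 1 was Slc2a1, higher in CA1 by 0.41 ± 0.21 (limma, adjusted p = 1.0, and as pairs, with an error of 0.14, adjusted p = 0.326), and higher in 6 of 8 pairs. It was lower in CA1 in replicate 2 at 3 h and at 12 h. Slc2a3 was lower in CA1 in 7 of 8 pairs (CA1 minus CA3 -0.48 ± 0.50, limma, adjusted p = 1.0), as was Eno2 (-0.28 ± 0.44). In both the pair that went the other way was 30 min replicate 1. Leaving out 1 array moved the difference of Slc2a3 between -0.86, without CA3 30 min replicate 1, and -0.09, without CA3 30 min replicate 2. That of Eno2 moved between -0.62 and 0.05. The other 7 genes lay between -0.06 and 0.16.

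At single times, with 2 arrays in each field, 0 of 10 passed by limma and 0 had an unadjusted p under 0.05. Of all probe sets 0 passed in these comparisons, and 0.725% (T0) to 2.04% (30 min) had an unadjusted p under 0.05. As pairs, again 0 of 10 passed by limma. In that fit Slc2a3 had an unadjusted p under 0.05 in T0 tissue, as did 3.96% of all probe sets. None of the 10 did so in the pair fit of a later time (4.47% to 6.48% of all). At T0 the fields did not overlap for 4 of the 10 and for 25.1% of all probe sets, with Slc2a1 higher in CA1 (by 0.45) and Slc2a3, Pfkp and Eno2 lower (by -1.25 in Slc2a3 and -0.68 in Eno2). By the means of 2 arrays, 9 of the 10 were higher in CA1 at 30 min and 9 were lower there at 12 h, but the replicates differed. At 30 min 9 were higher in CA1 in replicate 1, where CA3 had its low array, and 5 in replicate 2. At 12 h all 10 were lower in CA1 in replicate 2, while 7 were higher there in replicate 1. The change from T0 to 12 h in CA1 was also tested against that in CA3, and 0 of 10 genes and 0.0% of all probe sets passed (0 of 10 and 0.447% at an unadjusted p under 0.05). Within CA1 alone the 12 h difference passed for 0 of 10 and 0.208% of all probe sets, with 3 of the 10 and 11.3% at an unadjusted p under 0.05. Within CA3 alone it passed for 0 of 10 and 0.0063%, with 1 of the 10 and 6.93% at an unadjusted p under 0.05.

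Slc2a3 and Eno2 varied with the neuron markers, and inversely with markers of several other cell types, on the same arrays. A list called excitatory here held 10 neuron markers, 8 of them measured, among them Slc17a7, Camk2a, Nrgn and Snap25. In it Snap25 and Stmn2 are not particular to excitatory neurons. The mean log2 value of the 8 ran from 5.64 to 7.89 at T0 and 6.42 to 8.19 at 30 min. It ran from 5.85 to 7.95 at 3 h and 8.16 to 8.53 at 12 h. All 8 were higher at 12 h than at T0, with a median of 1.95. Of the 8, 2 passed the test, Slc17a6 and Stmn2, and rose (2.07% of all probe sets passed). With the CA1 and CA3 arrays of a time and number as pairs, neither passed (limma, adjusted p = 0.249 and 0.313). Over the 16 arrays, which share preparation and time, this mean correlated with Slc2a3 at r = 0.93, with Eno2 at 0.90, with Hk1 at 0.70 and with Pfkp at 0.68. It correlated with Slc2a1 at 0.28, with Ldha at 0.06, with Hk2 at -0.08 and with Pgk1 at -0.49. The mean of 7 inhibitory neuron markers correlated with Slc2a3 at 0.79, with Eno2 at 0.86, with Hk1 at 0.75 and with Pfkp at 0.60. The relation was thus not particular to the excitatory list. Slc2a3 and Eno2 correlated with the mean of the microglia markers at -0.81 each, and with that of the astrocyte markers at -0.66 and -0.74. With that of the vessel wall markers, which had low signals, they correlated at -0.73 and -0.68. Hk1 (-0.87) and Aldoa (-0.89) ran more strongly against the vessel wall mean. The part of neuron content in the 12 h values of Slc2a3 and Eno2 was not tested.

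**Figure D4:**
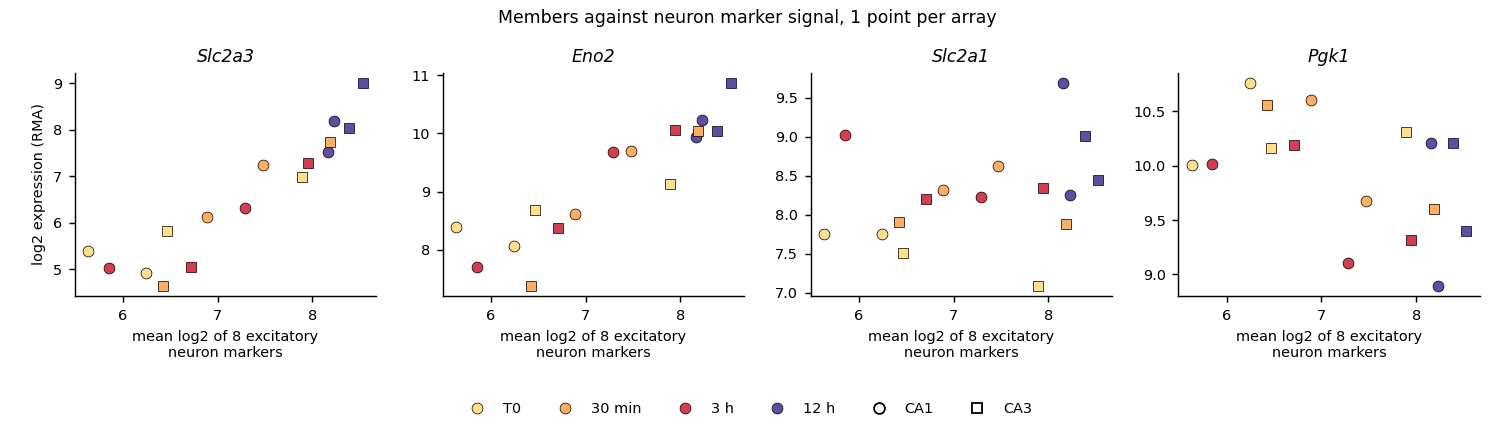
Log2 expression of Slc2a3, Eno2, Slc2a1 and Pgk1 (vertical axes) against the mean log2 value of 8 neuron markers, the list called excitatory (horizontal axes). Each array is 1 point, coloured by time, with circles for CA1 and squares for CA3. Slc2a3 and Eno2 climb with the marker mean (r = 0.93 and 0.90), Slc2a1 does so loosely (0.28) and Pgk1 declines (-0.49).

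Markers of other cell types were read on the same arrays. Markers of the vessel wall, where Slc2a1 is known to be abundant, had low signals, their mean over 9 of 11 listed running from 4.57 to 4.66 at T0 and from 4.38 to 4.61 at 12 h, and 0 of 9 passed at 12 h (1 at an unadjusted p under 0.05 by limma). Astrocyte markers ran from 8.18 to 8.75 at T0 and from 7.57 to 8.64 at 12 h, with a median difference of -0.28 and 0 of 9 passing (1 at an unadjusted p under 0.05 by limma). Their mean correlated with Pgk1 at r = 0.83 and with Slc2a1 at 0.20. Microglia markers were lower by a median of -1.82 at 12 h, where 3 of 10 passed and fell. Markers of dividing cells were lower by a median of -2.04, where 6 of 7 passed and fell. Over all probe sets 2.07% passed in this comparison. With the CA1 and CA3 arrays of a time and number as pairs, 0 of 15866 probe sets passed at 12 h, so none of these markers did. Inhibitory neuron markers (median 0.48) and oligodendrocyte markers (median 0.19) had 0 of 7 passing each, with 1 of 7 each at an unadjusted p under 0.05 by limma. The part of these cells in the results was not tested.

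Control signals also differed with time. The mean of 27 probe sets for Bacillus transcripts, added to the RNA as spikes, was 6.22 at T0 (5.96 to 6.46) and 4.75 at 12 h (4.32 to 5.16), without overlap. With this signal as a covariate, the 12 h difference was 1.08 for Slc2a3, 0.65 for Eno2, 0.21 for Pfkp and 0.56 for Ldhb. Those of Hk1, Aldoa and Pgk1 changed sign, to -0.02, -0.21 and 0.11. Because the spike signal did not overlap between T0 and 12 h, this fit cannot cleanly separate it from time. The 3′ minus 5′ signal of GAPDH, which grows as RNA is shortened, lay between 1.29 and 3.93. This signal was higher in replicate 2 than in replicate 1 in every group, T0 included. Its highest values were those of replicate 2 at 3 h, in CA1 and CA3 alike. Those were the arrays on which Ldha in CA1 and the second Pgk1 probe set in both fields were lowest. The part of these signals in the results was not tested.

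Some of the 10 genes varied closely together and others apart from them. Slc2a3 and Eno2 correlated at r = 0.96 over the 16 arrays, Slc2a3 and Hk1 at 0.85, Hk1 and Aldoa at 0.83, Hk1 and Eno2 at 0.81 and Slc2a3 and Pfkp at 0.77. Slc2a1 went most closely with Ldhb (0.71) and little with the other transporter (0.30). Ldha went most closely with Aldoa (0.65). Pgk1 ran against Eno2 (-0.70). These are descriptions over arrays that share time and preparation.

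Outside the 10, the named genes most alike in pattern over the 16 arrays were as follows. For Slc2a1 they were Gpr19 (r = 0.875) and Nfil3 (0.862), and for Slc2a3 Pde2a (0.977) and Prkar1b (0.973). For Eno2 they were Ndrg4 (0.968) and Camk2b (0.963), and for Ldhb Fez1 (0.945) and Hmces (0.866). Hk1 was most like Hectd3 (0.951) and Irgq (0.927), Pfkp like Ascc1 (0.900) and Phospho2 (0.895), and Aldoa like Chmp1a (0.904) and Tmem9 (0.901). Pgk1 was most like Ost4 (0.961) and Derl2 (0.960), and Ldha like Rwdd4 (0.919) and Xpo1 (0.910). For Hk2, at its low signal, the closest were Cyp2c7 (0.781) and Fat4 (0.745).

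The rest of the pathway was read from 8 lists, in which 80 of 96 genes were measured. No gene of these lists passed the test by limma in the 8 comparisons above (region, any time, the 3 times over both fields, 12 h in each field and the difference of the fields). The number of the 80 at an unadjusted p under 0.05 was 10 at 12 h over both fields, 7 at 3 h, 6 at 30 min and 3 between the fields. Over all probe sets the shares were 18.2%, 9.09%, 7.46% and 3.21% in the same order. Among 12 other glycolytic enzymes the median difference at 12 h was 0.08, with 8 higher and 4 lower. The muscle-type phosphofructokinase Pfkm was higher by 0.98 ± 0.41 (limma, adjusted p = 0.234) and the isomerase Gpi by 0.41 ± 0.26 (adjusted p = 0.469). Of 7 other glucose transporters 3 were higher and 4 lower, from -0.21 (Slc2a5, a fructose transporter of microglia in brain) to 0.23 (Slc2a13, a proton and inositol carrier).

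Carriers of lactate and pyruvate had a median of 0.08 over 8 genes. The largest differences there were those of the accessory proteins that bring lactate carriers to the membrane, Emb (-0.74 ± 0.43, limma, adjusted p = 0.427) and Bsg (0.58 ± 0.25, adjusted p = 0.245). Regulators of glycolysis had a median of 0.02 over 7 genes, with Txnip, a brake on glucose uptake, at 0.31 ± 0.50 and Pfkfb1 at -0.23 ± 0.15. In the list of pyruvate dehydrogenase and its kinases, the median over 10 genes was 0.05. There the kinase Pdk2 was higher by 0.91 ± 0.41 (adjusted p = 0.274) and the subunit Pdhx by 0.65 ± 0.23 (adjusted p = 0.173).

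The pathways that branch off glycolysis had negative medians at 12 h. In the pentose phosphate pathway, which makes NADPH for antioxidant defence, 6 of 7 genes were lower (median -0.40), with Pgd at -0.76 ± 0.27 (limma, adjusted p = 0.169) and Tkt at -0.64 ± 0.28 (adjusted p = 0.255). In glycogen metabolism 6 of 8 were lower (median -0.35). Pygl, the liver-type glycogen phosphorylase, came nearest to the threshold of the 80, at -1.18 ± 0.27 (limma, adjusted p = 0.0506), after -1.07 at 30 min and -1.05 at 3 h. Ugp2, which makes the sugar donor for glycogen, was at -0.70 ± 0.57. The 21 measured genes of the HIF and hypoxia response outside glycolysis had a median of 0.08, with 14 higher and 7 lower. The largest were Ddit4, a stress-induced brake on growth signalling, at 1.48 ± 0.57 (adjusted p = 0.201), and the vessel growth factor Vegfa at 0.94 ± 0.35 (adjusted p = 0.182).

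**Figure D5:**
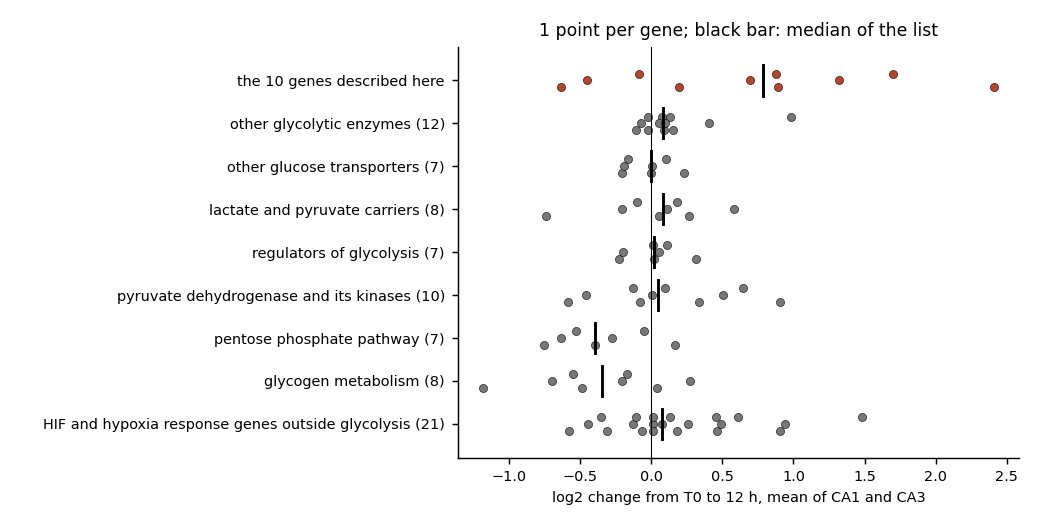
Log2 difference from T0 to 12 h averaged over CA1 and CA3 (horizontal axis), 1 point per gene, for the 10 genes described here (red) and for 8 lists of related genes (grey, number measured in brackets); black bars are medians. The bar of the 10 genes is at 0.78, and those of 6 lists lie between -0.004 and 0.082. Those of the pentose phosphate and glycogen lists are at -0.40 and -0.35. The genes and lists were chosen with earlier results of these data known, so the bars are no test of them.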

How the data were processed

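The table the authors deposited holds log2 values from RMA, per the submitters' processing notes. This method corrects background, gives all arrays 1 distribution and summarises probes; its version is not given in the sources used here. A change in total mRNA per cell therefore cannot be seen. The array medians ran from 5.811 to 5.938. Gene names came from the platform's annotation: 12783 tested probe sets have 1 gene, 312 several and 2771 none.

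limma 3.58.1 (R 4.3.3) fitted 8 group means to the 16 arrays (8 residual degrees of freedom, prior 2.55), and p-values were adjusted over 15866 probe sets, 57 controls being left out. The number of arrays limits the precision. The genes and lists were chosen with earlier results of these data known. Of each pathway list the text names genes past the threshold, otherwise the 2 with the largest difference at 12 h; of each of the 10 genes, the 2 with the highest Pearson r.

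Deviations from group means correlated at 0.568 to 0.668 between CA1 and CA3 arrays of 1 time and number, so numbers were taken to pair the fields within a time; what a number marks is not labelled. Between later times, same-numbered arrays correlated at 0.296 to 0.657 (6 of 6 over 0.1), and between T0 and later times at -0.236 to 0.308 (3 of 6). Numbers thus track across the later times but were not taken to pair these with T0, which every time comparison uses. The pair fit used 8 differences or 8 means of pairs (4 residual degrees of freedom). The main fit was run on simulated data in which all arrays were independent. That cannot show its error rate under the correlation of CA1 and CA3 arrays given above. Alternatives covered blocks, normalization, filter, prior, probe set choice, covariates and arrays left out. Sequences are RefSeq's (GRCr8); motifs were searched on both strands.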

Additional observations from a re-analysis of the deposited data

How the results depend on the processing

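With 2 arrays per group, precision limits all results. Counts of the 10 genes past the threshold held in all settings run for the region comparison, the changes at 30 min and 3 h, the changes to 12 h within a field and their difference. At 12 h over both fields the count was 1. It was 4 with the replicate number as a block (Slc2a1, Slc2a3, Pgk1 and Eno2; the numbers do not pair T0 with later times), 0 with the array pair as a replicate block, 2 with cyclic loess (Slc2a1 and Ldhb), 0 with a trend and robust prior, 4 with the GAPDH signal as a covariate (the same genes as with the number), 0 with the spike signal, 0 without the 30 min and 12 h arrays of replicate 2, 0 without its 3 h arrays, and 0 to 2 leaving out 1 array. The test of any difference over time gave 1 with the GAPDH covariate (main 0). The GAPDH signal was higher in replicate 2 than in replicate 1 in every group. The array pair block gives no value within 1 field. With the spike covariate, not cleanly separable from time, the 12 h differences of Hk1, Aldoa and Pgk1 turned to -0.02, -0.21 and 0.11. Differences between fields near 0 turned sign: Pgk1 to 0.12 with the GAPDH covariate, and Aldoa to 0.05 and 0.11 without the same sets of replicate 2 arrays. Leaving out 1 array gave -0.09 to 0.32 for Hk1, -0.13 to 0.24 for Pfkp, -0.15 to 0.08 for Aldoa, -0.22 to 0.10 for Pgk1, -0.62 to 0.05 for Eno2 and -0.07 to 0.26 for Ldhb, and without a change of sign -0.86 to -0.09 for Slc2a3, 0.23 to 0.59 for Slc2a1 and 0.01 to 0.31 for Ldha. For the 12 h differences it gave no change of sign, with -0.96 to -0.31 for Pgk1, -0.76 to -0.14 for Ldha and 0.08 to 0.31 for Aldoa. The cause was not tested. Hk2 lies below the signal filter.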
